A study of Mus musculus with 11 samples.

Results

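Rn45s is the genome copy of the mouse 45S ribosomal RNA repeat, and its DNA methylation was measured at the CpGs of mm9 chromosome 17 from position 39979959 to 39985654. The locus was chosen from measured values, namely its pile-up of reads and a methylation level that was higher after 120 h without estradiol than after 24 h. The tables listed 266 CpGs in this window, a span of 5697 bp, all of them in all 11 libraries, out of 1481716 CpGs listed anywhere. Of the 266, 261 had at least 10 reads in every library and enter the levels below, and 5 did not. An annotation of mm9 was not used here, so the name was not checked against gene models, and CpGs were not assigned to parts of the repeat.

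Ribosomal RNA genes are present in many near-identical copies in tandem arrays on several chromosomes, and RNA polymerase I transcribes each copy into a 45S precursor that is cut into the RNAs of the small and large ribosomal subunits and a small RNA of the large one. Only some copies are active in a cell, and silent copies are known to carry CpG methylation. A genome assembly holds few of these copies, so reads of many copies can collect at one place, and a methylation level there is then an average over copies and over cells.

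The cells were ER-Hoxa9-Lys-GFP cells, a C57BL/6 mouse culture in which Hoxa9, a factor that holds myeloid progenitors in an immature state, is joined to a hormone-responsive piece of the estrogen receptor. Such fusions are active while estradiol is in the medium, and its removal lets cells differentiate. All cultures were grown with conditioned medium that contains SCF, a growth factor of early blood cells. DNA was read by reduced representation bisulfite sequencing (RRBS), in which CpG-rich fragments are converted so that unmethylated cytosines read as thymine. Cells kept in estradiol gave 1 library. Every other group gave 2, called replicates 1 and 2. One group lost estradiol for 120 h. The others lost it for 24, 40, 56 and 72 h and got it back for the next 96, 80, 64 and 48 h in that order, so absence and return cannot be told apart. Times below are hours of absence. Total depth ran from 8234933 to 46899896 CpG-read observations (each read counted once at each CpG it covers).

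The locus took a large part of each library. Its 261 CpGs had a mean of 447.8 to 2403 reads, against a library median of 5 to 25 reads per CpG, a ratio of 87.6 to 109.6. The locus held 1.25 to 1.73% of all CpG-read observations. Of the 261 CpGs, 194 were over 50 times the library median in every library. In 500-bp tiles the locus gave 12 of the 6849 tiles covered in all libraries, and 10 of these 12 were among the 20 deepest. The 12 tiles ranked from 3 to 30 in depth, with 488.2 to 1632 reads per CpG, where the median tile elsewhere had 40.8. The pile-up was a reason for choosing the locus, so its height is a description. Differences in depth between libraries were no part of that choice.

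The nearest listed CpGs outside the window were far shallower than those inside. The nearest listed CpG before it, at 39979510 (390 bp outside), had a mean of 6.18 reads per library and a pooled level of 94.1%, and the next, at 39979254, had 19.1 reads and 40%. The nearest one after it, at 39990901 (5101 bp outside), had 9.82 reads and 96.3%. Just inside, the first CpG at 39979959 had a mean of 1738 reads and a mean level of 36.7%. Listed CpGs on both sides were thus at the depth of ordinary CpGs. After the window none was listed before 39990901, so the place where depth fell on that side is not known.

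Methylation along the repeat was of middle level and uneven in a way that all libraries shared. Over the 261 CpGs the mean level was 34.3% ± 7.55 (SD over CpGs), with a lower quartile of 31.5% and an upper quartile of 38.8%. Most CpGs, 163, lay at 30 to 40%, 46 at 40 to 50%, 37 at 20 to 30%, 13 under 20% and 2 at 50% or more. Across CpGs, the profile of one library followed that of another with a Pearson's r of 0.83 to 0.97 over the 55 pairs of libraries, a description, since neighbouring CpGs share reads. Neighbours at most 10 bp apart differed by a median of 0.96 points (161 neighbour pairs), and neighbours more than 50 bp apart by 4.33 points (24 pairs). The mean level of a CpG moved little with its depth (r = 0.22 across CpGs, a description).

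**Figure D1:**
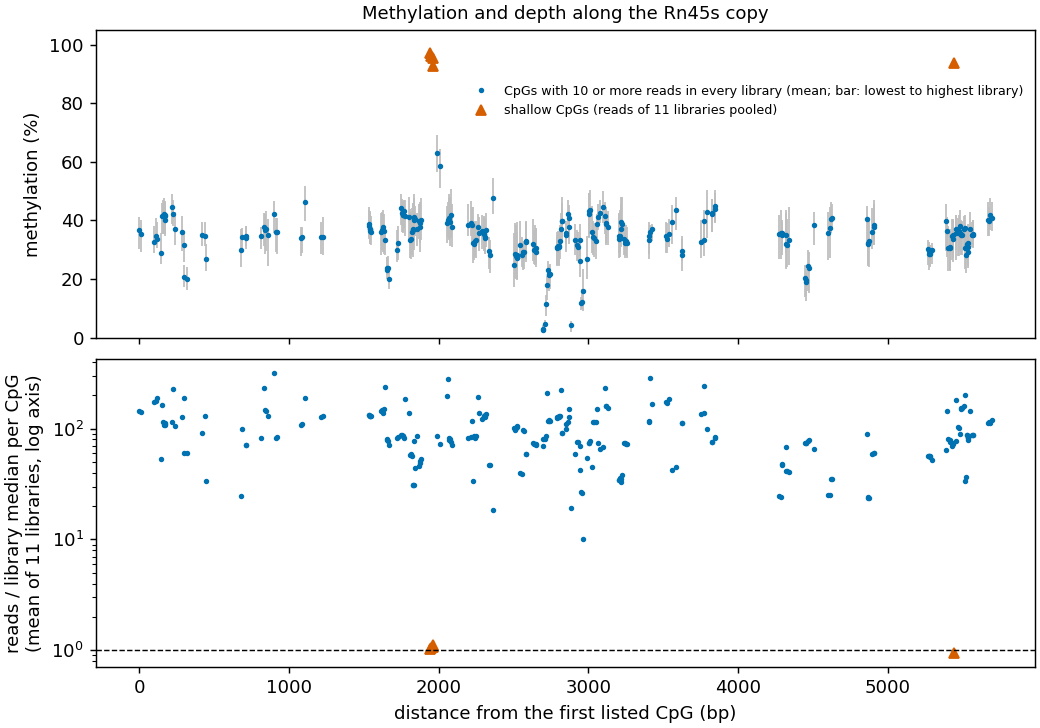
Methylation (top, percent) and depth (bottom, reads over the library median per CpG on a log axis, mean of 11 libraries) against distance in bp from the first listed CpG. Blue points are the 261 CpGs with 10 or more reads in every library, with grey bars from the lowest to the highest library, and orange triangles are the 5 shallow CpGs, which lie near a ratio of 1 (dashed line) and above 90% methylation.

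The deepest CpGs lay apart from each other. The CpG at 39980861 had a mean of 3887 reads and a mean level of 42.1% ± 3.50 (SD over 11 libraries). The CpG at 39983370 had 3487 reads and 36.2% ± 2.07, and that at 39982023 had 3435 reads and 40.2% ± 3.59. None of these 3 left the middle range in any library, with levels from 32.2 to 46.7%.

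The least methylated CpGs formed a short trough. The CpG at 39982655 had a level of 2.45% ± 0.69 (SD over 11 libraries) on a mean of 831.5 reads, between 1.54 and 3.89% in single libraries. Its neighbour at 39982659 had 3.03% ± 0.81. From there the level was 4.71% at 39982672, 11.5% at 39982678, 18% at 39982681 and 23% at 39982688, and it was 30.6% at 39982749. On the other side the CpG at 39982612, with 847.9 reads, was at 29.3%. Another CpG of this kind lay beyond the trough, at 39982843, with 4.2% ± 1.23 on a mean of 222.7 reads. The trough stood at the same CpGs in all 11 libraries, where the first 3 of its CpGs reached at most 5.91%.

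The 2 most methylated of the 261 CpGs sat beside 4 of the 5 shallow ones. The CpG at 39981950 had 63% ± 3.83 (SD over 11 libraries) on a mean of 1058 reads, and that at 39981967 had 58.5% ± 4.06 on 890.7 reads. Next, and away from the shallow ones, came the CpG at 39982320, with 47.6% ± 3.56. Right before the first pair, 4 CpGs from 39981900 to 39981923 had only 13.5 to 14.6 reads per library, and their pooled levels were 92.9 to 97.3%. The fifth shallow CpG, at 39985399, had a mean of 10.5 reads and a pooled level of 93.9%. Its neighbours were at the usual level of the locus, with 35.1% at 39985396 (864.5 reads) and 35.8% at 39985412 (907.5 reads).

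Depth at the shallow CpGs followed that of ordinary CpGs, library by library. Their mean was 5.4 reads in the library kept in estradiol, where the library median was 7. Replicates 1 and 2 had 9.8 and 26 reads at 24 h (medians 9 and 25), and 4.6 and 6 at 40 h (medians 5 and 6). At 56 h these were 2 and 7.4 (both medians 5). The 72 h libraries had 21.6 and 13 (medians 17 and 13), and those of 120 h had 28.8 and 21.8 (medians 25 and 16). The window therefore held 5 CpGs at ordinary depth with pooled levels over 90%. Of these, 4 lay together from 39981900 to 39981923, so they may share reads and are not separate cases. After these 4 came CpGs with 63 and 58.5%, at 85.7 and 72 times the library median. Before them, the nearest of the 261 CpGs, at 39981844, had 40.3% at 53.7 times the median. Beside the fifth were CpGs with 35.1 and 35.8%, at 73.8 and 77.4 times the median. CpG-read observations at the 5 shallow CpGs number 10 to 144 per library, too few to compare libraries.

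Levels of the whole locus differed between replicates by 5.25 to 7.77 points at 40, 56 and 72 h, and by 1.23 and 1.41 points at 24 and 120 h. The 24 and 120 h levels were used in picking the locus, which may favour close replicates at these 2 times. Cells kept in estradiol had 33.6% methylated reads (Wilson 95% interval 33.4 to 33.9, 181858 CpG-read observations). At 24 h the replicates were at 33.4 and 34.6%, a mean of 34% ± 0.87 (SD, n = 2). At 40 h they were at 30.4 and 36.9%, a mean of 33.6% ± 4.59. At 56 h they were at 34 and 39.2%, a mean of 36.6% ± 3.71. At 72 h they were at 30.2 and 38%, a mean of 34.1% ± 5.50. At 120 h they were at 36.9 and 38.3%, a mean of 37.6% ± 1.00. The lowest libraries were replicate 1 of 72 h and of 40 h, the highest was replicate 2 of 56 h, and the library kept in estradiol ranked 4 of 11 from below.

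**Figure D2:**
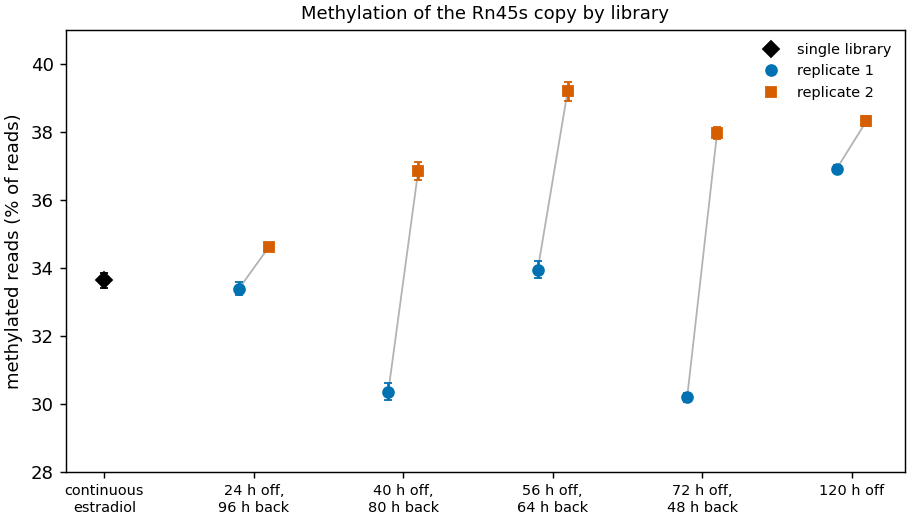
Methylated reads as a percent of reads on the 261 CpGs, by group. Each point is a library (circle, replicate 1; square, replicate 2; diamond, the single library kept in estradiol), and lines join replicates of a time. Bars are Wilson 95% intervals, which take CpG-read observations as independent and can be too narrow. The axis starts at 28%. Replicate 2 lies above replicate 1 at every time, by 1.23 to 7.77 points.

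Between means of 2 libraries, the difference for which the locus was picked was smaller than the replicate differences at 40, 56 and 72 h. Those lie between single libraries, so the 2 measures are unlike. Replicate 1 was at 33.4% after 24 h and 36.9% after 120 h, and replicate 2 at 34.6 and 38.3%, an order that the choice of the locus favours. The 120 h mean was 3.62 points above the 24 h mean, and the lower 120 h library was 2.30 points above the higher 24 h library. In the 12 tiles that gap was 0.83 to 4.37 points, so the 120 h pair lay above the 24 h pair in 12 of 12, as the choice of the locus all but fixes. The 40, 56 and 72 h libraries took no part in that choice, and 3 of these 6 lay outside the whole range of the 24 h and 120 h libraries. No test is given for this contrast.

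In all 5 pairs replicate 2 was the more methylated. The excess was 1.23 points for the 24 h pair and 1.41 points for the 120 h pair. The returned pairs of 40, 56 and 72 h showed 6.49, 5.25 and 7.77 points. The mean was 4.43 ± 2.98 points (SD, n = 5 pairs), given with no test, since the 24 h and 120 h levels were used in picking the locus. In the 3 pairs that took no part in picking the locus the mean was 6.51 ± 1.26 points (SD, exact two-sided sign-flip permutation p = 0.25, the smallest that 3 pairs can give). Replicate 1 libraries ran from 30.2 to 36.9% and replicate 2 libraries from 34.6 to 39.2%, so the ranges overlap across times but not within a time.

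The shift ran along the whole window. In the 72 h pair 260 of the 261 CpGs were higher in replicate 2, and in the 40 and 56 h pairs 253 and 231 were. The counts were 199 for 120 h and 174 for 24 h. In all 5 pairs at once, 121 CpGs were higher in replicate 2 and 0 were higher in replicate 1. Elsewhere, 74508 CpGs met the same read minimum, and 0.989% of them were higher in replicate 2 in all 5 pairs. Among the 183 of them at 20 to 60% methylation and with at least 100 reads in every library it was 32.2%, so depth and middle methylation go with this count. Of the 12 tiles, 9 were higher in replicate 2 in all 5 pairs, against 1.92% of 6837 tiles elsewhere. Among the 39 tiles elsewhere that were in the deepest 1% and at 20 to 60% methylation, it was 48.7%.

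In percentage points the shift was not even over the CpGs. Of the 13 CpGs under 20%, 10 had a mean replicate difference above 0, with a median of 0.88 points. A level near 0 leaves little room for a difference in points. A small value there does not show that these CpGs lacked the shift. All 200 CpGs at 20 to 40% had one above 0 (median 4.33 points), as had all 48 at 40% or more (median 4.79 points). The largest mean difference was 9.15 points at 39981794, where the estradiol library was at 42% and the others ran from 29.8 to 49%. The next were 8.76 points at 39983179 and 8.32 points at 39981788. The 2 most methylated CpGs, at 39981950 and 39981967, differed by 0.82 and 0.96 points on average, and each was higher in replicate 2 in 2 of 5 pairs.

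Counting error was smaller than these differences at 40, 56 and 72 h. The chi-square of a single CpG between replicates, about 1 on average if reads were drawn independently from 1 level, had a mean over the 261 CpGs of 6.15, 4.27 and 20.7 for the 40, 56 and 72 h pairs. For the 24 and 120 h pairs, whose levels were used in picking the locus, it was 1.72 and 2.42. This measure grows with depth, and the 72 h libraries had a mean of 1139 and 1864 reads per CpG.

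Replicate 2 also had a lower depth on the locus relative to the rest of its library. The depth ratio was 95.3 to 109.6 in replicate 1 libraries and 87.6 to 94.7 in replicate 2 libraries, and 99.5 in the library kept in estradiol. The replicate ranges did not overlap by this ratio, which rests on whole-number medians, but they did by the share of observations (1.34 to 1.73% against 1.25 to 1.36%). The log2 depth ratio was lower in replicate 2 in 5 of 5 pairs, by 0.20 ± 0.13 on average (SD, exact two-sided sign-flip permutation p = 0.062, the smallest possible). As a share of all observations the locus had 1.38% in replicate 1 and 1.26% in replicate 2 of 24 h, 1.73 and 1.36% of 40 h, and 1.45 and 1.31% of 56 h. The 72 h pair had 1.40 and 1.25%, the 120 h pair 1.34 and 1.27%, and continuous estradiol 1.44%. In bulk DNA, the number of copies and the recovery of their fragments cannot be told apart.

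The lower share in replicate 2 came with unmethylated reads. In replicate 1, unmethylated reads on the locus took 0.92, 1.20, 0.96, 0.98 and 0.84% of observations, in order of time from 24 to 120 h. In replicate 2 they took 0.83, 0.86, 0.79, 0.77 and 0.78%, which is 0.72 to 0.93-fold in the 5 pairs, and continuous estradiol had 0.95%. Methylated reads took 0.42 to 0.52% in the 11 libraries and were 0.95 to 1.12-fold in replicate 2, with no common direction. Over the 11 libraries the coefficient of variation was 13.9% for the unmethylated share and 6.35% for the methylated share. Replicate 2 was thus higher in level and lower in depth ratio in 5 of 5 pairs, and unmethylated reads enter both measures. A correlation of level with depth was planned over the 7 libraries that took no part in picking the locus. It gave a Pearson's r of -0.92 (exact permutation p = 0.012, 0.023 adjusted over 2 relations, the other being that with hours). But the libraries fell into separate sets by replicate number, each too small for its own r. This pooled r therefore cannot tell a link of level and depth from the replicate difference.

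**Figure D3:**
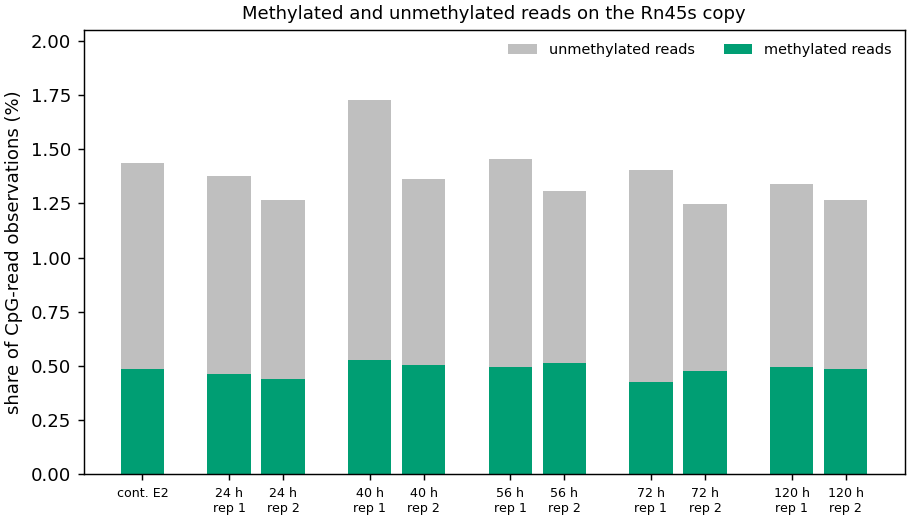
Share of all CpG-read observations of a library that lie on the locus (percent), split into methylated (green) and unmethylated (grey) reads, 1 bar per library. The green part stays between 0.42 and 0.52%, while the grey part is lower in replicate 2 than in replicate 1 at every time.

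No difference in depth of the locus between the 5 times was detected beyond the spread of replicates. Mean depth ratios were 92.5 ± 3.94 after 24 h and 95.4 ± 1.01 after 120 h (SD, n = 2). The 40, 56 and 72 h groups had 99.3 ± 13.6, 99.1 ± 13.5 and 98.6 ± 15.6. An exact permutation test of the F statistic over all ways to split the 10 libraries into pairs gave p = 0.98 for the ratio. The same exact permutation test gave p = 0.511 for the share of observations. Replicate number was not a term of this test, so the replicate difference in depth counted as spread within a time.

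Whether the locus differs between returned cells and cells never withdrawn was tested in all 12 tiles. The libraries compared took no part in picking the locus, but the shared spread also came from the 24 h and 120 h libraries, which did. At 72 h the estradiol library lay between the 2 replicates in 12 of 12 tiles, and the median difference was 0.29 points. It lay between the 40 h replicates in 10 of 12 tiles (median difference 0.35 points) and between the 56 h replicates in 6 (2.90 points). The direction rested on single libraries: the 72 h median was 4.42 points without replicate 1 and -3.86 without replicate 2, the 40 h median 3.36 and -3.13, and the 56 h median 5.23 and -0.04. In the quasi-binomial model 0 of the 12 tiles were called in each of the 3 comparisons, with adjusted p-values of at least 0.906, and 0 had an unadjusted p under 0.05. Over all 6849 tiles the share called was 0% in each, with 246, 202 and 233 tiles at an unadjusted p under 0.05 for 72, 56 and 40 h. By limma on the logit 0 tiles were called too (568, 382 and 388). With 1 library kept in estradiol, the spread in these tests came wholly from the other groups, and that library was assumed to vary as they do. The moderated spread was 16.4 to 339.4 times the binomial variance in the 12 tiles. The names of the deposited tables carry one number for all replicate 1 libraries and the estradiol library and another for replicate 2. The labels do not say what it marks, and its part in these comparisons was not tested.

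No trend of the level with hours without estradiol was detected among the returned libraries that took no part in picking the locus. From 40 to 72 h replicate 1 had 30.4, 34 and 30.2%, and replicate 2 had 36.9, 39.2 and 38%, so 56 h was highest in both. Over these 6 libraries Pearson's r with hours was 0.05 and Spearman's rho 0 (exact permutation p = 1 for both, and 1 adjusted over 2 relations). Without the 40 h pair r was -0.35, and without the 72 h pair 0.45. Of the 12 tiles, 0 were called for 72 h against 40 h (quasi-binomial model, adjusted p at least 0.892), as were 0% of all tiles (276 at an unadjusted p under 0.05, 784 by limma, which called 0). That fit took its spread from all 11 libraries, the 24 h and 120 h pairs included. The median difference of the 12 tiles, 0.16 points, was -2.79 without 40 h replicate 1, 3.88 without 40 h replicate 2, 4.14 without 72 h replicate 1 and -3.58 without 72 h replicate 2.

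Replicate number was tested across all tiles in the same way. The 12 tiles were higher in replicate 2 by a median of 4.19 points, from 3.01 at 39983501 to 39984000 up to 5.10 at 39982001 to 39982500. In the model 6 of the 12 had an unadjusted p under 0.05, against 191 of all 6849 tiles, but 0 passed the adjusted threshold (adjusted p = 0.934 in each of the 12), as did 0% of all tiles. By limma on the logit 0 of the 12 had an unadjusted p under 0.05 (342 of all tiles, 0 called). Replicate 2 was the higher in 57 of 60 pairs of a tile and a time, and the lower values were at 24 and 120 h. The fit includes the 24 h and 120 h libraries, whose levels were used in picking the locus, so its p-values for the 12 tiles support nothing.

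The same shift was seen at other deep places of middle methylation. Among tiles elsewhere in the deepest 1% (at least 144.7 reads per CpG), 39 had a level of 20 to 60%. In order of time, their median replicate differences were 1.24, 6.47, 4.50, 6.40 and 1.59 points, against 1.06, 6.56, 5, 7.36 and 1.14 points in the 12 tiles of the locus. Of these 39, 19 (48.7%) were higher in replicate 2 in all 5 pairs. At the 373 shallower tiles of 20 to 60% the medians were -0.49, 0.48, 0.79, 2.27 and 0.42 points, and 21 (5.63%) were higher in all 5 pairs. At shallower tiles under 20% all 5 medians were 0, and at those of 60% or more they ran from -0.23 to 0.32 points. No test was made of the difference between the locus and these tiles, and what sets the replicates apart was not tested.

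**Figure D4:**
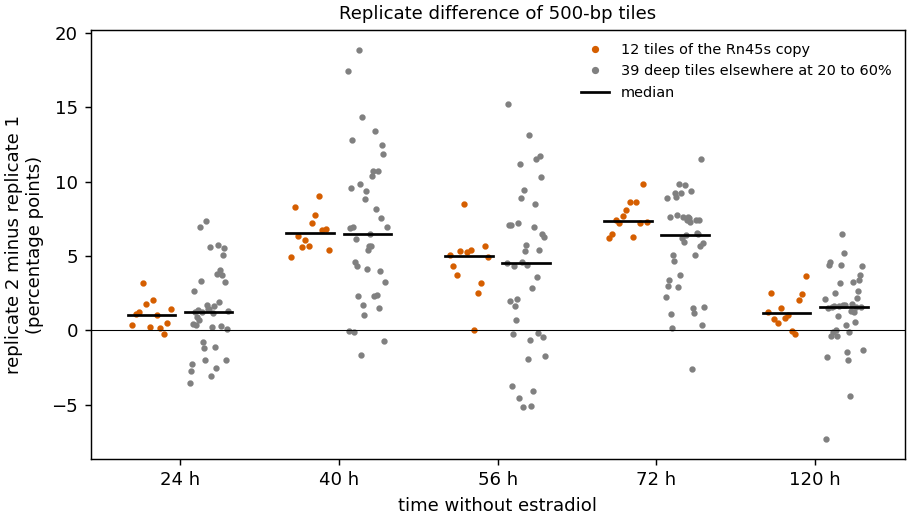
Replicate 2 minus replicate 1 in percentage points for 500-bp tiles, by time without estradiol: 12 tiles of the locus (orange) and 39 deep tiles elsewhere at 20 to 60% methylation (grey), with medians as black lines. Both sets have medians over 4 points at 40, 56 and 72 h and under 2 points at 24 and 120 h.

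The tiles whose level followed that of the locus most closely over the 11 libraries were deep ones as well. They lay at chr5:147072501-147073000 (Pearson's r = 0.95, level 40.1 to 49.3%), chr11:108873001-108873500 (r = 0.93, 36 to 46.2%) and chr12:100883001-100883500 (r = 0.92, 24.7 to 33.7%). In depth they ranked 7, 1 and 33 of 6849 tiles. These were the highest of 6837 correlations and are a description of likeness only.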

How the data were processed

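The deposited tables hold 1 line per CpG with the methylated reads and all reads, 2 whole-number counts in 1 cell, and a score that was 1000 times the methylated share, rounded, in 100% of lines. The genome build was mm9, per the submitters' processing notes. The aligner, its treatment of reads that fit several places, the methylation caller and the handling of PCR duplicates are not given in the sources used here. The labels do not say that replicates were separate cultures, so spread between them may be technical. Single reads can cover several CpGs and PCR copies were not marked, so CpG-read observations are not independent. Wilson 95% intervals take them as independent. They can thus be too narrow even for counting error, and they leave out all other spread.

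The locus was a fixed window of chromosome 17. Its level is methylated over all reads, summed over its CpGs that reached 10 reads in each of the 11 libraries. Depth is mean reads per such CpG over the library's median reads per listed CpG. Because these medians are whole numbers from 5 to 25, the share of all CpG-read observations of chromosomes 1 to 19 and X is given too.

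Reads of such CpGs were added up in 500-bp tiles, and the 6849 tiles holding 3 or more were kept. A quasi-binomial logistic model was run on each tile, giving each group its own mean, and all 11 libraries shared the estimate of spread. The dispersion was moderated by limma 3.58.1 (squeezeVar, on a trend with depth) and not allowed below 1. Benjamini-Hochberg adjusted p-values at 0.05 decided calls over all tiles. The replicate term was tested in the 10 libraries with a replicate number, with time as the other term. Single values used exact permutation tests (scipy 1.17.1, Python 3.11.15, R 4.3.3).

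The locus, the tests and the rule for named CpGs were chosen with earlier results of these data known. That rule names the 3 deepest, the 3 least and the 3 most methylated CpGs with the read minimum, and the 3 with the largest replicate difference. It also names the 3 tiles elsewhere whose level followed the locus most closely. The deep tiles elsewhere and the shallow CpGs were chosen after their values were seen. No list of related genes was tested, since an mm9 annotation was not used here.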

Additional observations from a re-analysis of the deposited data

How the results depend on the processing

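All counts of called tiles of the locus stayed at 0 under every alternative that was run: minimums of 5 and 20 reads, a constant prior for the dispersion, limma on the logit, tiles of 1000 bp (6 at the locus), and leaving out each replicate of the groups compared, or each time for the replicate term (0 to 0). For that term the adjusted p-values of the 12 tiles ran from 0.245 (minimum of 20 reads, 316 tiles tested) to 0.986. Across the 6837 tiles elsewhere, replicate differences of 2 times correlated with r of 0.003 to 0.07. That is under the 0.1 set as the limit for pairing by replicate number. Across the 12 tiles of the locus r was -0.52 to 0.40. Such an r leaves out a shift common to all tiles, so it cannot decide whether replicate numbers pair the libraries. With a replicate block the count for 72 h against 40 h was also 0, and r of level with hours was 0.14. Group levels moved by less than their SD, or the interval of the single estradiol library, with minimums of 5 and 100 reads. As the mean of the CpGs' own levels they were 33.3% in continuous estradiol and 36.5% at 120 h, past that limit. For continuous estradiol that limit takes CpG-read observations as independent, so it can be too narrow. With only the CpGs at 20 to 60%, an alternative chosen after seeing the data, continuous estradiol was at 34.4%. Leaving out a time gave a mean replicate difference of 3.60 to 5.23 points in level and -0.24 to -0.17 in log2 depth ratio. Without 1 library the F statistic of depth between times ran from 0.03 to 0.53. With 2 libraries a group an exact test of 2 groups cannot go below p = 0.333.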
